A study of Mus musculus with 6 samples.

Results

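The 9 genes described here encode transcription factors of mesenchymal cells that are best known from the epithelial-mesenchymal transition (EMT). They are the zinc-finger repressors Snai1 and Snai2, the zinc-finger and homeodomain repressors Zeb1 and Zeb2, the basic helix-loop-helix (bHLH) factors Twist1, Twist2 and Tcf21, the homeodomain factor Prrx1 and the T-box factor Tbx18. They were chosen by gene symbol from a list that sets no condition on their values, although earlier results of these data were known, and all 9 were found among the 14228 genes of the deposited count table. In the EMT, Snail and Zeb proteins bind E-box sequences in epithelial genes such as that of E-cadherin and repress them. Twist proteins act as dimers with E proteins, which Id proteins withhold from them. In fibroblasts the same factors are part of the normal mesenchymal programme. Prrx1 and Twist proteins act in limb and craniofacial mesenchyme. Tcf21 acts in the fibroblast lineages of heart, lung and kidney, and Tbx18 in epicardial, mesothelial and pericyte lineages.

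RNA was counted in 3 libraries of cancer-associated fibroblasts (CAF) and 3 libraries of normal fibroblasts from mouse stomach. The comparison addressed how stomach fibroblasts of mice with induced gastric cancer differ from those of control mice. All mice were triple-transgenic iLgr5;GLI2A animals of 8 weeks, in which an active GLI2 can be switched on in Lgr5-expressing epithelial stem cells. The controls thus carried the transgenes as well. To induce cancer, CAF mice were gavaged with tamoxifen in corn oil for 5 days. They were then kept for 3 weeks on doxycycline chow, and their water held doxycycline and sucrose for the first 3 of those days. Control mice received corn oil and neither drug, so that a drug effect and a cancer effect cannot be told apart. Cells were sorted as live podoplanin-positive cells depleted of CD31-positive endothelium, CD45-positive immune cells and EpCAM-positive epithelium. CAF libraries 1, 2 and 3 held cells of 1, 2 and 2 mice, and normal libraries 1, 2 and 3 those of 1, 1 and 2 mice.

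Total counts ranged from 644522 to 6422568 in CAF libraries and from 768420 to 3259644 in normal libraries. Levels are given as CPM, that is counts scaled to a common library total, after scaling of library sizes by trimmed mean of M-values. The fibroblast identity list (16 of 16 genes found) took 1.44% to 4.49% of the counts in CAF libraries and 0.606% to 2.54% in normal libraries, and the gastric gland list (16 of 18 found) took 0.602% to 0.854% and 4.12% to 19.9%. Normal library 3 held the least gland RNA (4.12%) and the most fibroblast RNA (2.54%) of the normal libraries. In these bulk samples fewer fibroblasts and less of an RNA per fibroblast cannot be told apart. Podoplanin itself (Pdpn) had 19, 876 and 880 counts in CAF libraries 1, 2 and 3 and 14, 27 and 15 in normal libraries 1, 2 and 3. Epcam RNA, in spite of the gate, was at 233, 127 and 114 CPM in the CAF libraries, against 150, 78.5 and 13.8 CPM in the normal libraries. Ptprc, which encodes CD45, had 0, 40 and 10 counts in the CAF libraries, against 0, 3 and 0 in the normal libraries, and Pecam1, which encodes CD31, had 0, 27 and 31 and 23, 7 and 0.

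Libraries also differed in the base composition of the transcripts they recovered, within both groups. Genes with AT-rich transcript ends (the lowest 20% by GC content of the last 500 bases) stood above genes with GC-rich ends (the highest 20%) in CAF libraries 2 and 3 and in normal library 2, by 0.71, 0.85 and 0.53 on the log2 scale. They stood below them in CAF library 1 and normal libraries 1 and 3, with differences of -1.05, -0.34 and -0.58. These are called the AT side and the GC side of the libraries below, and each side holds libraries of both groups. They were defined from the data over 9627 genes.

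**Figure D1:**
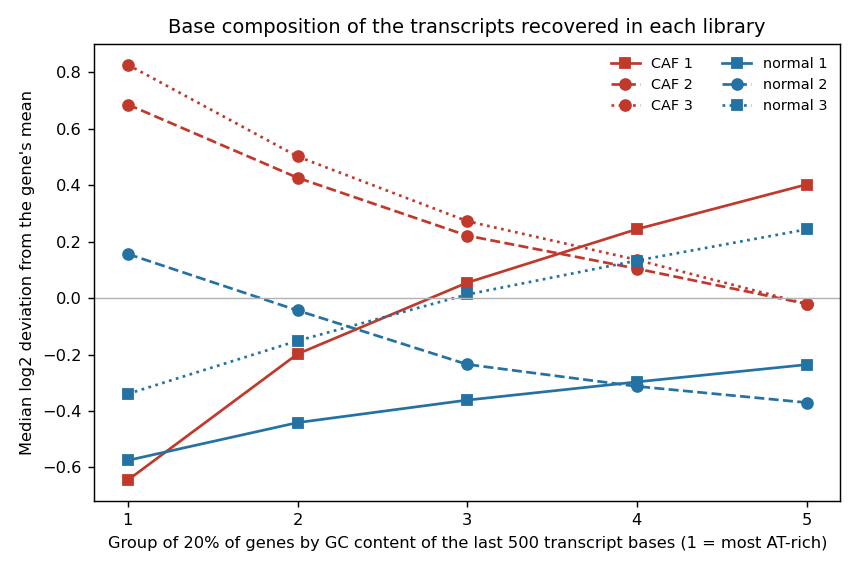
Median log2 deviation of genes from their mean over the 6 libraries (y axis, log2(CPM + 1)) in 5 equal groups of genes ordered by the GC content of the last 500 transcript bases (x axis), with 1 line per library in red for CAF and blue for normal. CAF libraries 2 and 3 and normal library 2 (circles) slope down from AT-rich to GC-rich ends, and CAF library 1 and normal libraries 1 and 3 (squares) slope up.

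Promoter sequences are shown for the 4 factors counted at least 10 times in every library, on which the clearest measurements rest. These are Snai1 and Twist2, the 2 factors with the smallest p-values, Twist1, the paralogue of Twist2, and Tcf21, the only tested factor with a lower level in CAF. Each runs from 250 bases before to 50 bases after the transcription start on the gene's own strand (RefSeq, GRCm38.p6, which is mm10). Snai1 lies at chr2:167537945-167538244 (plus strand), Twist2 at chr1:91801211-91801510 (plus), Twist1 at chr12:33957421-33957720 (plus) and Tcf21 at chr10:22820094-22820393 (minus). Capitals mark the E-box CANNTG, the motif CCAAT (or ATTGG, its other strand) and the motif TATAAA (or TTTATA), which do not overlap one another in these windows.
Snai1: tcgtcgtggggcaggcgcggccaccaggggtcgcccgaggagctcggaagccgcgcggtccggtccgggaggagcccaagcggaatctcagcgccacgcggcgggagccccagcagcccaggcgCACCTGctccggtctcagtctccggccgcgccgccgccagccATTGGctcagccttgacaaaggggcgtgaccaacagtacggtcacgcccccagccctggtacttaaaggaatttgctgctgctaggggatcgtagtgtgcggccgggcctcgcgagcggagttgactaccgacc
Twist2: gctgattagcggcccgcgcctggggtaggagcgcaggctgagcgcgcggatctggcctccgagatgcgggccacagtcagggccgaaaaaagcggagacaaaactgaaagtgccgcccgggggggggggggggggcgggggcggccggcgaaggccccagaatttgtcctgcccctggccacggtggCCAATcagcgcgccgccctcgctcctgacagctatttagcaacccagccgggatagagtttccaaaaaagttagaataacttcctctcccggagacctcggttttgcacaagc
Twist1: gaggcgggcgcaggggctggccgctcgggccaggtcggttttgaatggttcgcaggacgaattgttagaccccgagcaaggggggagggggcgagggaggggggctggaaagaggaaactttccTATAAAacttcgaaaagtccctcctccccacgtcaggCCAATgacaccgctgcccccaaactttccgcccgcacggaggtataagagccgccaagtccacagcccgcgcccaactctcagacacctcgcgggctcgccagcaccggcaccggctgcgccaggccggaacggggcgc
Tcf21: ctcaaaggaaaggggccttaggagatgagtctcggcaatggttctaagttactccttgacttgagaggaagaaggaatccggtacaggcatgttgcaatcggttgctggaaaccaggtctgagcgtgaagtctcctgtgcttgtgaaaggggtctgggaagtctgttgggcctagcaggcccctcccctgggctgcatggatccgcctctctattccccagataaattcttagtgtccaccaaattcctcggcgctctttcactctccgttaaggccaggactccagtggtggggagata

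The Snai1 window held 1 E-box, CACCTG, the form that Snail and Zeb proteins are known to bind, and 1 CCAAT motif on the opposite strand. Twist2 and Twist1 each held 1 CCAAT motif, Twist1 also held 1 TATAAA, and the Tcf21 window held none of the 3 motifs. Of 32851 mouse promoter windows of this length, 72.3% held CANNTG, 20.2% held CACCTG or CAGGTG, 37.4% held CCAAT and 13.6% held TATAAA on either strand, so that each of these matches is common.

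Snai1 and Twist2 were higher in CAF and Tcf21 lower, but none of the 9 factors passed the test in the comparison of CAF with normal fibroblasts. Of the 9, 7 had enough counts to be tested (Zeb2 and Tbx18 did not), 6 of these had a higher level in CAF and 1 a lower one, and their median log2 fold change was 1.28, against 0.06 over all 10148 genes tested. In edgeR's quasi-likelihood fit 0 of the 7 passed 0.05 after Benjamini-Hochberg adjustment over all genes, where 1.1% of all genes tested did. Unadjusted p was under 0.05 for 2 of the 7, Snai1 and Twist2, both higher in CAF, where 7.37% of all genes tested were higher with such a p. DESeq2 called 0 of the 8 to which it gave an adjusted p (7.28% of all such genes), and limma-voom called 0 of the 7 (0.641% of all genes). In the authors' deposited table the adjusted p-values of the 9 ranged from 0.164 (Snai1) to 0.957 (Twist1), and 6.37% of its genes were under 0.05. Without normal library 3, Snai1 and Twist2 passed (adjusted p = 0.014 and 0.0223 by edgeR), in a fit that called 10.0% of all genes.

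**Figure D2:**
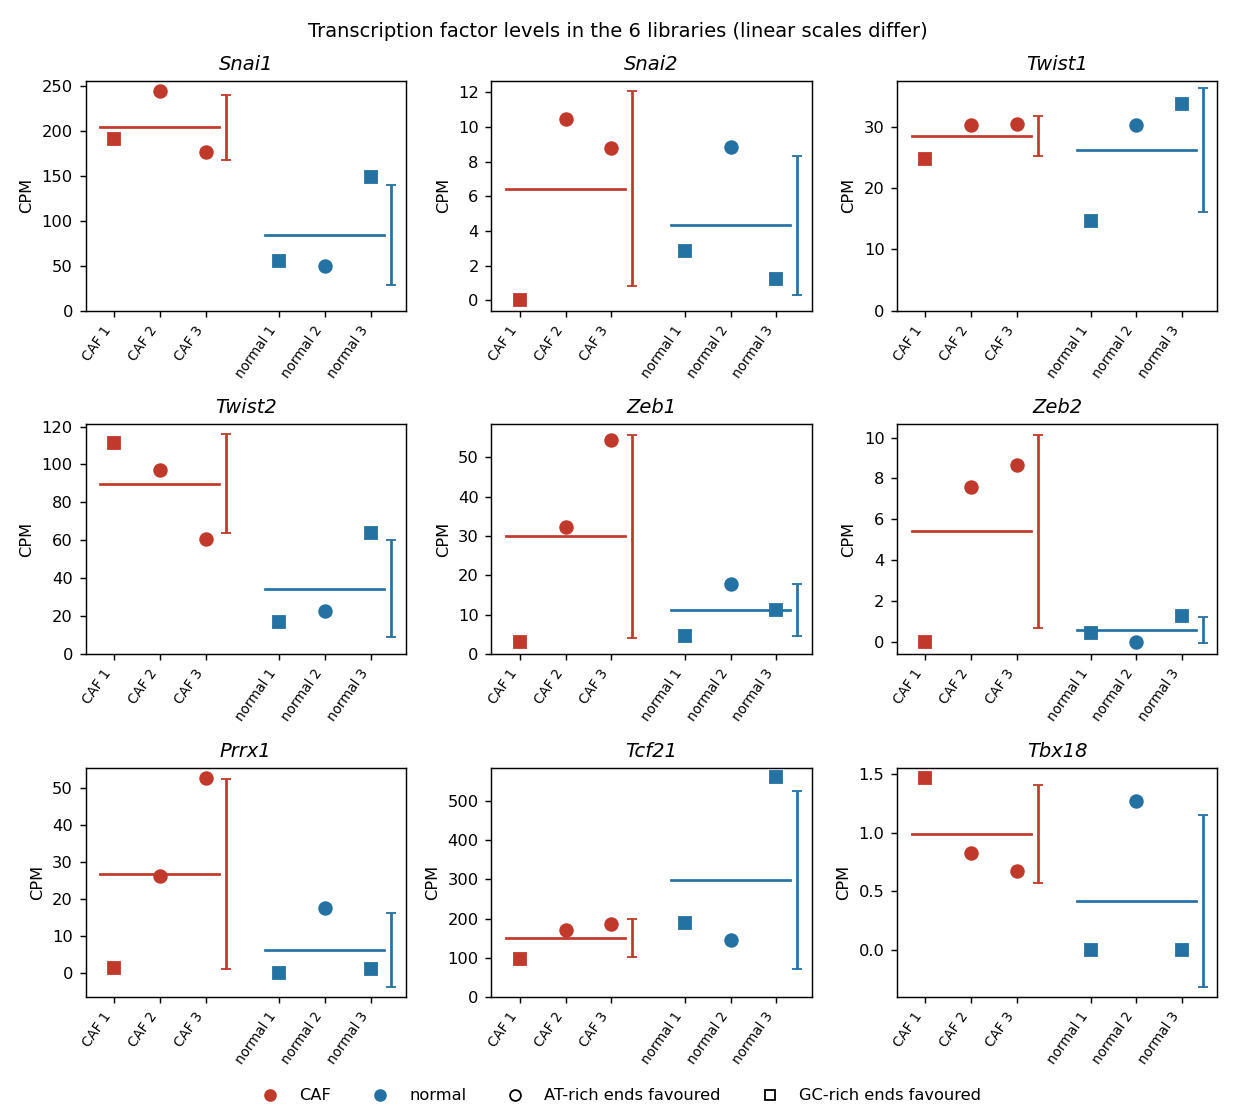
CPM (y axes, linear, each with its own scale) of the 9 factors in the 3 CAF libraries (red) and the 3 normal libraries (blue). Horizontal lines are group means, bars beside them 1 SD (n = 3), circles are libraries of the AT side and squares those of the GC side. Snai1 was higher in every CAF library than in any normal library, while Snai2, Zeb1 and Prrx1 were higher in every circle than in any square.

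Snai1, the Snail repressor of E-cadherin (mm10 chromosome 2, 167538195 to 167542814, plus strand), was the only factor whose libraries did not overlap between the groups. It was at 192, 245 and 177 CPM in CAF libraries 1, 2 and 3 (131, 1776 and 1305 counts), against 55.1, 49.4 and 149 CPM in normal libraries 1, 2 and 3 (135, 39 and 119 counts). All 3 CAF libraries lay above normal library 3, which in turn stood well above the other normal libraries; 10.6% of all genes tested were likewise higher in every CAF library. The means were 204 ± 36.0 CPM in CAF, against 84.4 ± 55.8 CPM in normal fibroblasts (SD, n = 3 each), and the 2.44-fold difference (log2 fold change 1.28 ± 0.47 SE) had an adjusted p of 0.249 by edgeR. The log2 fold change ranged from 1.01 to 1.90 with 1 library left out. Normal libraries 1 and 2 were the ones with the lowest share of fibroblast RNA, and against normal library 3 alone the log2 fold change was 0.52 (adjusted p = 0.592 by edgeR).

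Snai2, the Snail family member known as Slug, was far less often counted. It had 0, 76 and 65 counts in CAF libraries 1, 2 and 3 (0, 10.49 and 8.79 CPM), against 7, 7 and 1 counts in normal libraries 1, 2 and 3 (2.86, 8.87 and 1.25 CPM). It was thus lowest in libraries of the GC side in both groups, and 0 counts in CAF library 1 still allow up to 4.39 CPM. The log2 fold change was 0.84 ± 0.98 (SE, edgeR; adjusted p = 0.765), with a range of 0.44 to 1.65 in the fits with 1 library left out in which it passed the filter, and it turned to -0.33 with the side as a block.

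Twist2, a bHLH factor of dermal and other mesenchyme (chromosome 1, 91801461 to 91848028, plus strand), was at 111, 97.3 and 60.7 CPM in CAF libraries 1, 2 and 3 (76, 705 and 449 counts), against 16.7, 22.8 and 63.8 CPM in normal libraries 1, 2 and 3 (41, 18 and 51 counts). CAF library 3 and normal library 3 were close to each other, and the other libraries were separated by group. Means were 89.7 ± 26.1 CPM in CAF, against 34.4 ± 25.6 CPM in normal fibroblasts (SD, n = 3 each), with a log2 fold change of 1.40 ± 0.55 (SE; 2.64-fold; adjusted p = 0.275 by edgeR). It ranged from 1.02 to 2.13 with 1 library left out and was 0.53 against normal library 3 alone.

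Twist1 (chromosome 12, 33957671 to 33959829, plus strand), which acts in cranial and limb mesenchyme, was nearly level across the libraries. It was at 24.9, 30.4 and 30.6 CPM in CAF libraries 1, 2 and 3 (17, 220 and 226 counts), against 14.7, 30.4 and 33.8 CPM in normal libraries 1, 2 and 3 (36, 24 and 27 counts). The log2 fold change was 0.16 ± 0.41 (SE, edgeR; adjusted p = 0.907), so the groups overlapped and the direction was not fixed: it was -0.18 without normal library 1 and -0.17 against normal library 3 alone.

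Zeb1 and Prrx1 followed the base composition of the libraries more closely than the groups. Zeb1, a repressor of epithelial genes that opposes the miR-200 family, had 2, 233 and 403 counts in CAF libraries 1, 2 and 3 (2.93, 32.2 and 54.5 CPM), against 11, 14 and 9 counts in normal libraries 1, 2 and 3 (4.49, 17.7 and 11.3 CPM). Its log2 fold change was 1.57 ± 0.88 (SE, edgeR; adjusted p = 0.473), made up of a high level in CAF libraries 2 and 3 and the lowest level of all in CAF library 1. It ranged from 0.84 (without CAF library 3) to 2.09 with 1 library left out and was 0.54 with the number of pooled mice as a covariate. Prrx1, a homeodomain factor of limb and facial mesenchyme, had 1, 191 and 389 counts in CAF libraries 1, 2 and 3 (1.46, 26.4 and 52.6 CPM), against 0, 14 and 1 counts in normal libraries 1, 2 and 3 (0, 17.7 and 1.25 CPM). Its log2 fold change was 2.38 ± 1.45 (SE, edgeR; adjusted p = 0.515) and ranged from 1.40 to 6.24 with 1 library left out. The highest of these values came without normal library 2, a fit in which the normal libraries held 1 count of Prrx1.

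Zeb2, the second Zeb repressor, which macrophages and Schwann cells also express, had 0, 55 and 64 counts in CAF libraries 1, 2 and 3 (0, 7.59 and 8.66 CPM), against 1, 0 and 1 counts in normal libraries 1, 2 and 3 (0.408, 0 and 1.25 CPM). It was thus seen almost only in the 2 deepest libraries, CAF libraries 2 and 3. Normal library 1, the next in depth, had 1 count (0.408 CPM). Zeb2 did not pass the filter on low counts. Pooled over the group the rate was 15.7 times higher in CAF (95% counting interval 4.25 to 131), but 0 counts allow up to 4.39 CPM in CAF library 1 and up to 3.80 CPM in normal library 2. Immune markers (16 of 18 found) took 0.0262% to 0.195% of the counts in CAF libraries and 0.00813% to 0.0934% in normal libraries. Lyz2, a macrophage lysozyme, was at 11.7, 128 and 52.5 CPM in CAF libraries 1, 2 and 3. Normal libraries 1, 2 and 3 had 16.7, 170 and 12.5 CPM of it. Lyz2 was thus highest in normal library 2. The limit of 3.80 CPM for Zeb2 there lay below the 7.59 and 8.66 CPM of CAF libraries 2 and 3 and covers counting error only. The immune share and Ptprc were instead highest in CAF library 2 (0.195% and 5.52 CPM). For both, normal library 2 (0.0934% and 3.80 CPM) came above CAF library 3 (0.0492% and 1.35 CPM). Markers of enteric glia and Schwann cells (5 of 10 found, without Sox10) took 0.0281%, 0.0123% and 0.00986% in CAF libraries 1, 2 and 3. They took 0.00242%, 0.00244% and 0.00117% in normal libraries 1, 2 and 3. This share was thus highest in CAF library 1, which had 0 Zeb2 counts (up to 4.39 CPM). The part of macrophages and Schwann cells in the Zeb2 counts was not tested.

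Snai2, Zeb1 and Prrx1 were each higher in all 3 libraries of the AT side than in any of the GC side, a pattern that 15.1% of all genes tested showed. On the AT side Snai2 was at 8.79 to 10.49 CPM, Zeb1 at 17.7 to 54.5 CPM and Prrx1 at 17.7 to 52.6 CPM, compared with 0 to 2.86, 2.93 to 11.3 and 0 to 1.46 CPM on the GC side, where the counts of Snai2 and Prrx1 were too few for a fold. The mean CPM of the AT side was 1.25 times that of the GC side for Twist1, 0.943 times for Twist2, 1.19 times for Snai1 and 0.593 times for Tcf21. The GC content of the factors' own transcript ends did not order them in the same way, while that of whole transcripts did set these 3 apart. The last 500 bases of the longest annotated transcript were 30.4% GC for Snai2, 46.0% for Zeb1 and 43.2% for Prrx1, against 37.2% for Twist1, 36.4% for Twist2, 49.2% for Snai1 and 34.4% for Tcf21. Whole transcripts of Zeb1 and Prrx1 were long (5801 and 6527 bases) and those of Snai2, Zeb1 and Prrx1 were 42.6%, 46.1% and 43.6% GC, below the 49.9% to 59.8% of the other 4. What links the sides to these factors was not tested.

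Within the sides, the fold changes of Snai1, Twist2 and Prrx1 kept their direction, which for Snai1 follows from groups that did not overlap. On the AT side (CAF libraries 2 and 3, normal library 2) the mean of Snai1 was 211 CPM in CAF and 49.4 CPM in the normal library, a log2 ratio of 2.09, and on the GC side (CAF library 1, normal libraries 1 and 3) 192 and 102 CPM, a log2 ratio of 0.91. Twist2 had log2 ratios of 1.79 and 1.47 on the AT and GC sides. Prrx1 had 1.16 and 1.23, of which the GC side rests on 1 count in CAF and 1 in the normal libraries. Twist1 was level on both (0.00 and 0.04). Zeb1 turned direction, with a log2 ratio of 1.29 on the AT side and -1.43 on the GC side, and so did Tcf21, with 0.29 and -1.96. With the side as a block in the edgeR fit, the log2 fold changes were 1.50 for Snai1, 1.65 for Twist2, 0.05 for Twist1, 0.48 for Zeb1, 1.26 for Prrx1 and -0.82 for Tcf21, and none passed (adjusted p = 0.203 for Twist2, the smallest, and 0.973 for Twist1, the largest).

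Tcf21 (chromosome 10, 22817281 to 22820174, minus strand), a bHLH factor of fibroblast progenitors, was at 96.6, 172 and 185 CPM in CAF libraries 1, 2 and 3 (66, 1243 and 1369 counts), against 190, 146 and 560 CPM in normal libraries 1, 2 and 3 (466, 115 and 448 counts). Normal library 3, the one with the most fibroblast RNA, stood far above the rest, and CAF libraries 2 and 3 lay between normal libraries 2 and 1. The means were 151 ± 47.7 CPM in CAF, against 299 ± 228 CPM in normal fibroblasts (SD, n = 3 each), and the log2 fold change was -0.97 ± 0.56 (SE, edgeR; adjusted p = 0.484), or -0.21 without normal library 3. Tbx18, a T-box factor of epicardium and pericytes, had 1, 6 and 5 counts in CAF libraries 1, 2 and 3 and 0, 1 and 0 counts in normal libraries 1, 2 and 3. It was too rare to test, and the pooled rate ratio was 3.16 (95% counting interval 0.468 to 135).

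**Figure D3:**
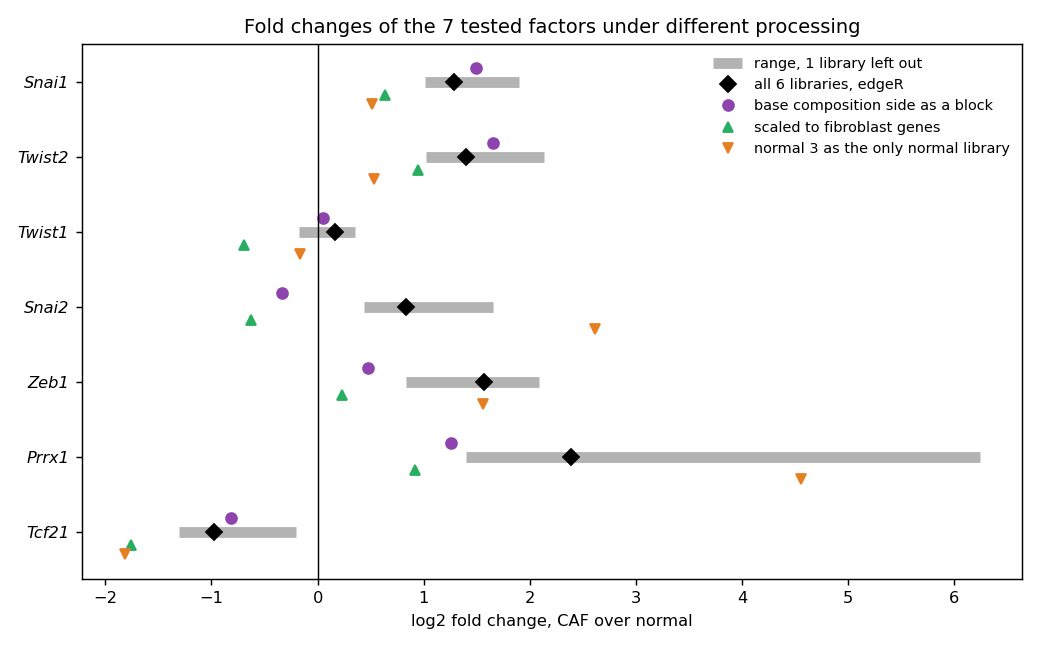
Log2 fold change of CAF over normal (x axis) for the 7 tested factors with all 6 libraries (diamonds), with the side as a block (circles), on the scale of fibroblast genes (triangles pointing up) and against normal library 3 alone (triangles pointing down). Grey bars span the fits with 1 library left out in which the gene passed the filter. Snai1 and Twist2 were above 0 and Tcf21 below 0 in each of these, whereas Snai2 and Twist1 crossed 0; the scale of fibroblast genes moved the median of all genes to -0.90.

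Since fibroblast RNA made up different shares of the libraries, the factors were also set against the summed counts of the 16 fibroblast identity genes. Per 10000 such counts, Snai1 had 141, 77.0 and 45.3 counts in CAF libraries 1, 2 and 3, against 68.3, 39.0 and 61.0 in normal libraries 1, 2 and 3. The groups then overlapped, and the log2 fold change of Snai1 was 0.63 (adjusted p = 0.685 by edgeR). Twist2 had 81.6, 30.6 and 15.6 in the CAF libraries, against 20.8, 18.01 and 26.1 in the normal libraries, with a log2 fold change of 0.95 (adjusted p = 0.567). Tcf21 had 70.9, 53.9 and 47.5 in CAF libraries 1, 2 and 3 and 236, 115 and 230 in normal libraries 1, 2 and 3. On this scale Tcf21 was lower in every CAF library than in any normal library, the only factor whose groups did not overlap, and 12.7% of all genes tested were likewise lower in every CAF library. Its log2 fold change of -1.76 did not pass (adjusted p = 0.333 by edgeR). This scaling moved the median log2 fold change of all genes to -0.90, and relative to that median the changes were 1.53 for Snai1, 1.85 for Twist2, -0.86 for Tcf21 and 0.21 for Twist1, compared with 1.22, 1.34, -1.04 and 0.10 without this scaling. The fibroblast list itself had a median log2 fold change of 1.10, with 0 of 16 genes called, and 6 of its genes are collagens; without them the values were 0.69 for Snai1, 0.98 for Twist2 and -1.65 for Tcf21.

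Ratios between factors counted in the same library do not depend on scaling or on the share of fibroblast RNA as long as the same cells make both. For each pair of the 4 factors with at least 10 counts in every library the ratio was taken after their values were seen, so that these are descriptions without a test. A ratio of a factor higher in CAF to one lower in CAF is apt to separate the groups. How many other gene pairs separate the groups in this way was not counted. The ratio of Snai1 to Tcf21 counts was 1.98, 1.43 and 0.953 in CAF libraries 1, 2 and 3, against 0.29, 0.339 and 0.266 in normal libraries 1, 2 and 3. The 3 normal ratios lay close together. In CAF libraries 1, 2 and 3 the ratio fell while the share of the fibroblast list rose (1.44%, 3.59% and 4.49% of the counts), and what links the 2 was not tested. The mean ratio was 4.88 times higher in CAF (1.46 ± 0.516 against 0.298 ± 0.0375, SD, n = 3 each). The ratio of Twist2 to Tcf21 was 1.15, 0.567 and 0.328 in the CAF libraries, against 0.088, 0.157 and 0.114 in the normal libraries, 5.71 times higher in the mean. The ratio of Twist2 to Snai1 overlapped between the groups, at 0.44 ± 0.124 in CAF and 0.398 ± 0.0833 in normal fibroblasts. In CAF libraries the mean ratio of Twist1 to Snai1 was 0.385 times that in normal libraries, without overlap, and the ratio of Twist1 to Tcf21 overlapped.

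**Figure D4:**
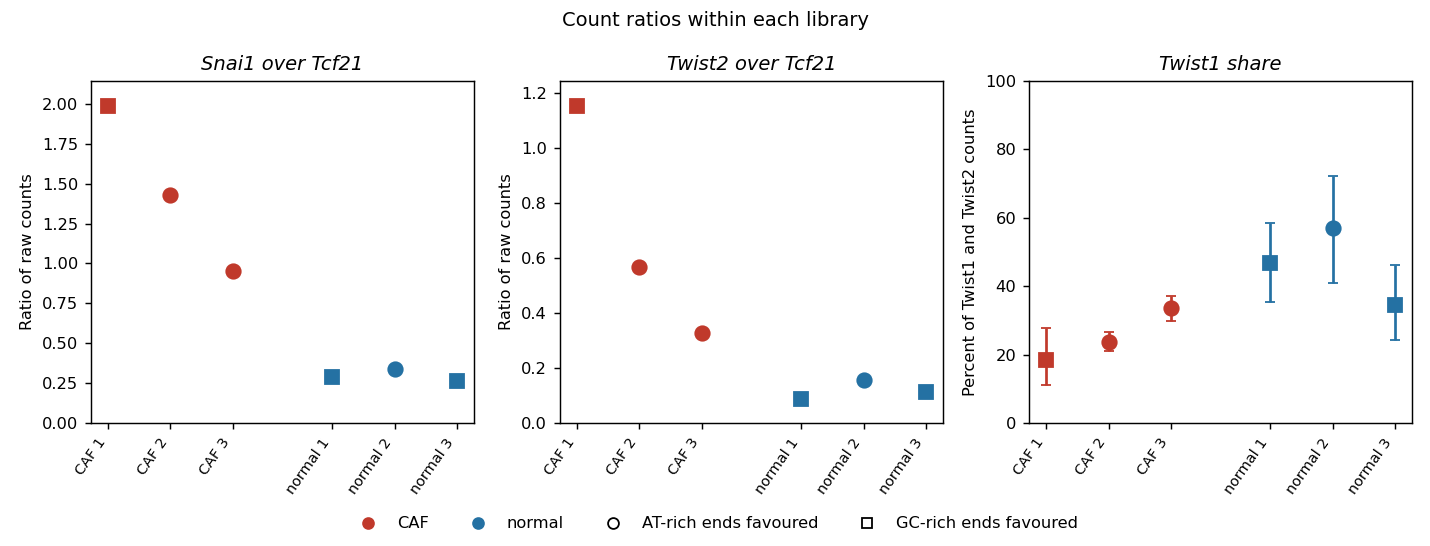
Ratio of raw counts of Snai1 to Tcf21 and of Twist2 to Tcf21 (y axes from 0) and share of Twist1 in the summed Twist1 and Twist2 counts in percent, for CAF libraries (red) and normal libraries (blue); circles are libraries of the AT side, squares those of the GC side, and bars on the shares are 95% exact binomial intervals. The lowest CAF ratio of Snai1 to Tcf21, 0.953, lay above the highest normal one, 0.339. How many other gene pairs separate the groups likewise was not counted.

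Within paralogue pairs, the share of Twist1 in the Twist1 and Twist2 counts was 18.3%, 23.8% and 33.5% in CAF libraries 1, 2 and 3 (of 93, 925 and 675 counts), against 46.8%, 57.1% and 34.6% in normal libraries 1, 2 and 3 (of 77, 42 and 78 counts). All 3 CAF shares were lower than the normal ones, but the 95% exact binomial intervals of CAF library 3 (29.9% to 37.2%) and normal library 3 (24.2% to 46.2%) overlapped. Means were 25.2% ± 7.70 in CAF and 46.2% ± 11.3 in normal fibroblasts (SD, n = 3 each), a difference of -21.0 percentage points. A two-sided exact permutation test over the libraries gave p = 0.1, the smallest that 3 against 3 libraries allow, and 0.3 adjusted over the 3 pairs. The difference ranged from -26.8 to -15.5 points with 1 library left out and was -9.43 points against normal library 3 alone.

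Snai1 took nearly all of the Snai1 and Snai2 counts in both groups, 97.1% ± 2.57 in CAF and 93.0% ± 7.41 in normal fibroblasts (SD, n = 3 each; exact permutation p = 0.4, 0.5 adjusted). Zeb1 took 89.1% ± 9.85 of the Zeb1 and Zeb2 counts in CAF and 93.9% ± 5.36 in normal fibroblasts (exact permutation p = 0.5, 0.5 adjusted). The Zeb shares rest on 2, 288 and 467 counts in CAF libraries 1, 2 and 3 and on 12, 14 and 10 counts in normal libraries 1, 2 and 3. With 3 against 3 libraries this test cannot go below 0.1.

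Of 93 tested genes in 6 lists around these factors in the EMT programme, edgeR called 1, where it called 1.1% of all genes tested. All 18 tested mesenchymal effector genes had a higher level in CAF, with a median log2 fold change of 1.35 and 0 called by edgeR. DESeq2 called 5 of the 19 to which it gave an adjusted p, all higher in CAF, where it called 7.28% of all genes. Without normal library 3, edgeR called 6 of 19 effector genes, where it called 10.0% of all genes tested. With the side as a block it called 1 of 18, where it called 121 of 10148 genes. Those of smallest p were Fn1 (fibronectin), at 2362 ± 963 CPM in CAF, against 590 ± 213 CPM in normal fibroblasts (SD, n = 3 each; adjusted p = 0.0935 by edgeR), and S100a4, a calcium-binding protein known as fibroblast-specific protein, at 177 ± 33.1 and 47.1 ± 29.8 CPM (adjusted p = 0.101). On the scale of fibroblast genes the median of these effectors was 0.74. Relative to the median of all genes it was positive in all 18 alternatives (0.40 to 1.72). Subtracting that median largely takes out the shift of all genes that the fibroblast scale makes, so this sign does not test the fibroblast share. This list and the fibroblast list share Col1a1, Col1a2 and Col3a1.

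Among 20 tested epithelial genes that Snail and Zeb proteins are known to repress, 16 had a lower level in CAF and 4 a higher one, with a median log2 fold change of -0.90. By edgeR 1 gene was called, and it was higher: Cldn3, the tight-junction protein claudin 3, at 116, 74.9 and 74.5 CPM in CAF libraries 1, 2 and 3, against 5.71, 2.53 and 3.75 CPM in normal libraries 1, 2 and 3 (edgeR log2 fold change 4.33 ± 0.44 SE; adjusted p = 0.0124). Its log2 fold change was 4.09 to 4.76 with 1 library left out, but the call was lost without CAF library 2, normal library 1 or normal library 2 (adjusted p = 0.0674, 0.141 and 0.0565 by edgeR). Of the 22 genes of this list to which it gave an adjusted p, DESeq2 called 2 higher and 3 lower in CAF, where it called 7.28% of all such genes. EdgeR called 6 of 20 on the scale of fibroblast genes, where it called 562 of 10148 genes (100 higher and 462 lower). Of these 6, Cldn3 was higher in CAF and the others lower. Without normal library 3 edgeR called 11 of 22, where it called 10.0% of all genes tested (412 higher and 781 lower). Of these 11, Cldn3 and Cldn7 were higher in CAF and the others lower. The list's median ranged from -2.05 to 1.73 over the alternatives and was positive against normal library 3 alone. The gland list took 0.602% to 0.854% of the counts in CAF libraries and 4.12% to 19.9% in normal libraries, and squamous forestomach markers (13 of 14 found) took 0.0106% to 0.0152% and 0.0173% to 0.273%. Krt5, a keratin of squamous epithelium, was at 14.6, 16.1 and 7.44 CPM in CAF libraries 1, 2 and 3, against 707, 778 and 48.8 CPM in normal libraries 1, 2 and 3. These markers of both epithelia were thus lower in every CAF library. Besides Cldn3, the genes of the list with a higher level in CAF were Epcam, Cldn4 and Cldn7 (edgeR log2 fold changes 0.94, 2.28 and 2.88). The part of epithelial cells in this list was not tested.

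Of the 7 Twist partners and Id inhibitors, 3 had a higher and 4 a lower level in CAF (median log2 fold change -0.13, or 0.26 with limma-voom). EdgeR called 0 of the 7 with all libraries and 2, Id1 and Id2, without normal library 3 (10.0% of all genes in that fit). DESeq2 called 1 of the 7, Id1 (7.28% of all genes with an adjusted p). Id1 and Id2, which bind E proteins and keep them from bHLH partners such as Twist, had the smallest p. Id1 was at 181, 147 and 139 CPM in CAF libraries 1, 2 and 3, against 738, 460 and 226 CPM in normal libraries 1, 2 and 3, lower in every CAF library (edgeR log2 fold change -1.61 ± 0.46 SE; adjusted p = 0.135). Id2 was at 117.6 ± 21.6 CPM in CAF, against 383 ± 240 CPM in normal fibroblasts (SD, n = 3 each; adjusted p = 0.203 by edgeR). Of 10 tested related mesenchymal factors, 8 had a higher and 2 a lower level in CAF (median log2 fold change 1.18). EdgeR called 0 of these 10 with all libraries and 2 of 13, Prrx2 and Hand2, without normal library 3 (10.0% of all genes in that fit). DESeq2 called 1 of the 14 to which it gave an adjusted p, Prrx2 (7.28% of all such genes). The Prrx1 paralogue Prrx2 was at 70.2, 57.4 and 70.7 CPM in CAF libraries 1, 2 and 3, against 12.6, 15.2 and 28.8 CPM in normal libraries 1, 2 and 3. Its groups did not overlap (edgeR log2 fold change 1.84 ± 0.40 SE; adjusted p = 0.0746). Six2, a homeodomain factor of kidney progenitors, was at 46.8 ± 16.4 CPM in CAF, against 20.6 ± 2.70 CPM in normal fibroblasts (adjusted p = 0.171).

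The Snail and Zeb corepressors and turnover factors had a median log2 fold change of 0.48 over 18 genes, 15 higher and 3 lower. EdgeR called 0 of these, DESeq2 0 of 20, and edgeR without normal library 3 called 1 of 18 (10.0% of all genes in that fit). Pak1, a kinase that phosphorylates Snai1, was at 55.2 ± 23.3 CPM in CAF, against 20.3 ± 8.87 CPM in normal fibroblasts (SD, n = 3 each; adjusted p = 0.175 by edgeR). Lats2, a kinase of the Hippo pathway that also phosphorylates Snai1, was at 43.9 ± 16.4 and 23.4 ± 9.06 CPM (adjusted p = 0.384). EMT inducing signals had a median of 0.69 over 20 genes, 15 higher and 5 lower. Again edgeR and DESeq2 called 0 of the 20, and edgeR without normal library 3 called 1 of 20 (10.0% of all genes in that fit). Smad3, which carries TGF-beta signals, was at 62.7 ± 4.22 CPM in CAF, against 35.1 ± 7.59 CPM in normal fibroblasts (adjusted p = 0.236), and Stat3 at 221 ± 82.5 and 117.6 ± 18.4 CPM (adjusted p = 0.28).

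**Figure D5:**
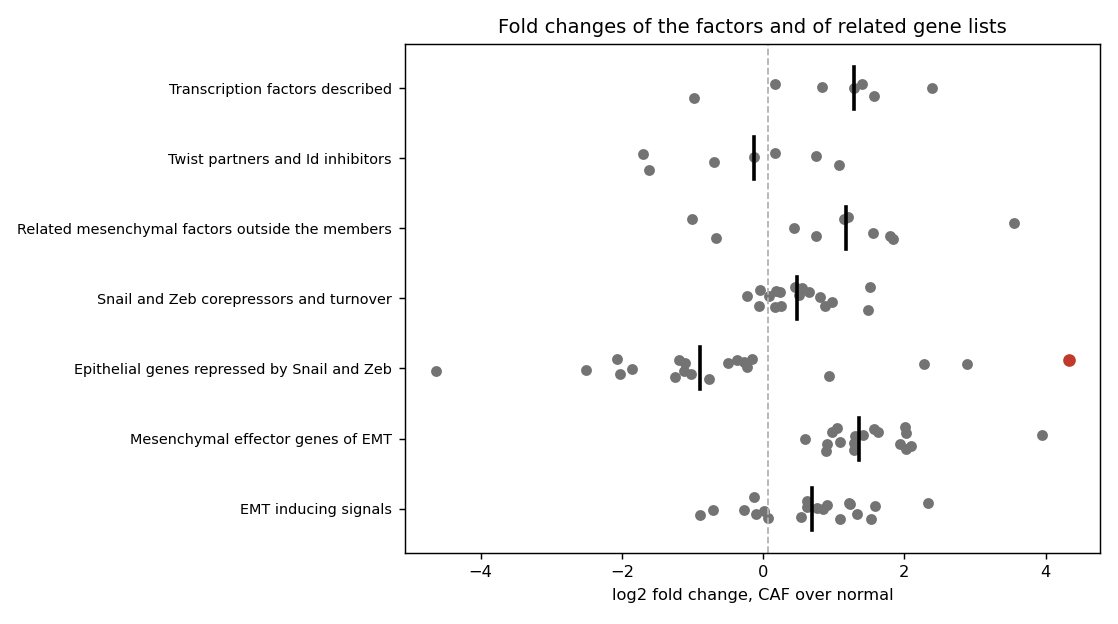
Log2 fold change of CAF over normal (x axis) for each tested gene of the factors and of 6 related lists, with black bars at list medians, a dashed line at the median of all genes tested (0.06) and called genes in red. The 18 mesenchymal effector genes all lie above 0, and the 1 gene called by edgeR is Cldn3.

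The genes whose levels followed each factor most closely over the 6 libraries were named by Pearson's r of log2(CPM + 1) among 9343 genes with a mean of at least 20 counts, as a description, since the libraries share depth, base composition and group. Closest to Snai1 were Lgals1 (galectin 1, r = 0.995) and Sec23a (a coat protein of secretory vesicles, r = 0.994). Closest to Twist2 were Pcbp3 (r = 0.995) and the chemokine Cxcl14 (r = 0.991), and to Twist1 Nudt16 (r = 0.985) and Zbtb34 (r = 0.977). Lgals1 was at 2661, 3231 and 2599 CPM in CAF libraries 1, 2 and 3, against 736, 794 and 2059 CPM in normal libraries 1, 2 and 3, with normal library 3 again closest to CAF. Closest to Zeb1 were Kctd9 (r = 0.997) and the ferritin receptor gene Scara5 (r = 0.994), to Prrx1 Gnai1 (r = 0.995) and Utrn (r = 0.995), to Snai2 Tomm20 and Atad1 (r = 0.998 each), and to Tcf21 Nek9 (r = 0.993) and Sp2 (r = 0.992). Between 7 genes (Twist1) and 293 genes (Snai2) had r above 0.95 with a factor, which is 0.0749% to 3.14% of the genes compared.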

How the data were processed

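RNA was sequenced by MARS-seq, which counts the 3′ ends of polyadenylated transcripts, per the labels' protocols. Cutadapt, STAR, HTSeq, DESeq2 and the build mm10 are named, without versions, per the submitters' processing notes. The annotation, the strand setting and the handling of molecular identifiers were not given in the sources used here. As for units, the authors deposited raw counts per gene symbol, which were tested here, a normalized signal (raw count over 1 size factor per library, checked in the values), regularized values on the log2 scale (not used), and their own log2 fold changes, p-values and adjusted p-values. Every listed gene has at least 6 counts in some library.

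The test was that of edgeR 4.0.16 under R 4.3.3 (filterByExpr defaults, trimmed mean of M-values, quasi-likelihood F test, threshold 0.05 after Benjamini-Hochberg adjustment over 10148 genes), with group as the only term over 3 CAF and 3 normal libraries; standard errors are derived from the F statistic. The fit was tested on simulated data. Alternatives used DESeq2 1.42.0, limma-voom (limma 3.58.1), other scalings, filters, a covariate and fewer libraries. Each library had its own mouse or its own 2 mice. Counting intervals (95%, exact) and the limit that a count of 0 allows (3 counts) cover counting error only. GC content was taken from GENCODE M21 transcripts, found for 98.2% of genes, and promoters from RefSeq, used for 7 of the 9 factors. Named genes were all 9 factors, up to 4 called members of each list or, with none called, the 2 of smallest p, and the 2 genes most like each factor with a mean of at least 20 counts. The factors and lists were chosen with earlier results of these data known.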

Additional observations from a re-analysis of the deposited data

How the results depend on the processing

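None of the factors was called in 17 of the 18 alternatives; without normal library 3, 2 were. With 1 library left out the number of genes called ranged from 0 to 1193: 49, 4 and 29 without CAF libraries 1, 2 and 3, and 0, 6 and 1193 without normal libraries 1, 2 and 3. It was 112 with all libraries, 562 on the scale of fibroblast genes, 544 on that scale without collagens (chosen after seeing the data, as was the block), 0 against normal library 3 alone, 65 with limma-voom and 935 with DESeq2; the cause was not tested. In that fit the lone normal library was assumed to vary like the CAF libraries. The log2 fold change of Snai2 reversed to -0.63 and -0.46 on the 2 fibroblast scales and to -0.33 with the block, and that of Twist1 to -0.69 and -0.63 on the fibroblast scales, -0.17 against normal library 3 alone and -0.18 to 0.35 with 1 library left out (-0.18 without normal library 1). The fibroblast scales moved the median of all genes to -0.90 and -0.85. Relative to it Snai2 (0.27 and 0.39) and Twist1 (0.21 and 0.22) were positive, but this subtraction largely takes out the shift that the scales make. The difference in Snai1 share reversed to -2.12 points against normal library 3 alone, and with 1 library left out ranged from -0.0679 to 7.12 points (-0.0679 without normal library 2). The Zeb1 difference ranged from -10.3 to -0.741 and the Twist1 difference from -26.8 to -15.5 points (-9.43 against normal library 3 alone). Snai1, Twist2, Zeb1, Prrx1 and Tcf21 kept their direction in all 18 alternatives, which share libraries with one another. Between the AT and GC sides, however, Zeb1 (log2 ratios 1.29 and -1.43) and Tcf21 (0.29 and -1.96) turned direction. Called members of the lists ranged from 0 to 11. No paired analysis was possible because the labels give CAF and normal libraries no shared replicate numbers. Depth limits Snai2, Zeb2 and Tbx18, which had fewer than 10 counts in most libraries.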
